A study of Rattus norvegicus with 12 samples.

Results

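Hif1a, Vegfa, Slc2a1 and Ldha, 4 genes of the hypoxia response and of glycolysis, were followed through injury and treatment of the rat urethra. They were chosen by gene ID: ENSRNOG00000008292 for Hif1a, ENSRNOG00000019598 for Vegfa, ENSRNOG00000007284 for Slc2a1 and ENSRNOG00000013009 for Ldha. They are 4 of the 32623 gene IDs in the count table, and all 4 were among the 17521 genes expressed highly enough to be tested. The symbols came with the choice of IDs. The count table holds no symbols and the RefSeq gene table at hand (assembly GRCr8) holds 0 Ensembl IDs, so the pairing of IDs and symbols could not be checked here.

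RNA was sequenced from urethral tissue of male rats in 4 groups of 3 libraries. Sham rats had no urethral injury. The other groups all had a mechanical injury of the urethra, which in the injury group was followed by no labelled drug, in the rapamycin group by rapamycin, a blocker of the mTOR kinase, and in the TDN group by a tetrahedral DNA nanostructure, a small cage folded from DNA strands. Strain, age, dose, route and time of harvest are not given in the labels, and the study's text mentions a vehicle without saying which rats received it. The study asked how transcripts differ between these groups. Nothing states that the libraries of a group are from different animals. The p-values therefore cover only library-to-library spread, which may be technical.

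HIF-1 is the transcription factor through which cells respond to low oxygen. Its alpha subunit, the product of Hif1a, is made all the time and destroyed while oxygen is present, so that its activity is set largely by protein stability and not by the level of its mRNA. When the subunit is stable it pairs with ARNT, binds DNA at a short core sequence (ACGTG or GCGTG) and raises the transcription of target genes. Vegfa, Slc2a1 and Ldha are among the best known of these targets, and each has other regulators too. Vegfa encodes a secreted growth factor for blood vessels, Slc2a1 the glucose transporter GLUT1, and Ldha the lactate dehydrogenase subunit that favours turning pyruvate into lactate at the end of glycolysis.

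Because the core sequence links the regulator to its targets, the 250 bases before the RefSeq start of each of the 4 genes are shown, 5′ to 3′ on the plus strand of GRCr8, with matches to ACGTG or GCGTG on either strand in capitals. Matches that overlap each other, as in a palindrome, are counted on each strand.
Hif1a, chr6:98359648-98359897: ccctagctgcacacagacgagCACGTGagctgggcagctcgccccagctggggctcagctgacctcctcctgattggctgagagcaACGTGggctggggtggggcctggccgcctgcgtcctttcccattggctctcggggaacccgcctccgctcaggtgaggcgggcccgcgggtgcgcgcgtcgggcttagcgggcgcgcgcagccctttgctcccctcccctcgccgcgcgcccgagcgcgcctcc
Vegfa, chr9:22452604-22452853: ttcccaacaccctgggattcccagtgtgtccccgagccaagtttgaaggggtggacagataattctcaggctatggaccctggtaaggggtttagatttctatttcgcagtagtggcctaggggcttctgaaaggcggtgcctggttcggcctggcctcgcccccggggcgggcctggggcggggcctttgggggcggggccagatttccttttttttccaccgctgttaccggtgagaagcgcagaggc
Slc2a1, chr5:138002272-138002521: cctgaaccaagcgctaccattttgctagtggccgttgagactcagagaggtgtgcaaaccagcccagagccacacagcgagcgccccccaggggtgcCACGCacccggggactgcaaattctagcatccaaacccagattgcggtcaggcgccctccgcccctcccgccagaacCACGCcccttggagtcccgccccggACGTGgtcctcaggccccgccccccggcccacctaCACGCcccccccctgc
Ldha, chr1:106507842-106508091: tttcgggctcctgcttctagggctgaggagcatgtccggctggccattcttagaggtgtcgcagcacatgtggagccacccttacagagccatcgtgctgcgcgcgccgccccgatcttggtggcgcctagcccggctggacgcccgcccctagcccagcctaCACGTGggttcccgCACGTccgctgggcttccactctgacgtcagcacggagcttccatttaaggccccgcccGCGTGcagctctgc

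The Slc2a1 window held 4 matches at 4 separate places, beginning 153, 76, 51 and 16 bases before the start. The Ldha window also held 4 matches, at 3 separate places, of which 2 overlap in a palindrome that begins 87 bases before the start and the others begin 73 and 14 bases before it. The Hif1a window held 3 matches at 2 places, and the Vegfa window held 0. Of 33469 RefSeq windows of the same length, 36.7% held at least 1 match, 16.6% at least 1 of ACGTG and 25.9% at least 1 of GCGTG, and 2.44% held 4 or more. These shares are not matched for the content of G and C bases. That content was 73.6% in the Hif1a window, 60.4% in Vegfa, 68.4% in Slc2a1 and 66.4% in Ldha. A match is only a description of the letters, and 0 matches says no more than that these letters are not in the window shown. The coordinates belong to GRCr8, while the submitters' processing notes name Rnor 6.0. They serve only to locate these sequences.

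The glycolytic genes Slc2a1 and Ldha rose together in rapamycin-treated injured tissue, 4.74-fold and 5.38-fold over sham, and in untreated injured tissue their means were 2.74-fold and 3.60-fold those of sham without passing the test. The rapamycin results depended on the libraries fitted, and neither gene passed when any 1 sham library was left out. In TDN-treated tissue Slc2a1 and Ldha were 1.16-fold and 1.25-fold sham. Vegfa went the other way, with its lowest mean in rapamycin tissue, 1.92-fold below sham, without passing the test. The group means of Hif1a mRNA ran from 87.2 to 125 CPM (read counts scaled to a common library size), and none of its comparisons passed. Replicate 3 of the injury group and replicate 3 of the rapamycin group lay far closer to sham in Slc2a1 and Ldha than the other 2 libraries of their groups did.

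Total counts ranged from 44765817 to 55928721 per library, and the smallest count of any of the 4 genes in a library was 968, for which counting alone gives a coefficient of variation of 3.21%. That figure covers counting error only. Levels are CPM after TMM scaling, which adjusts library sizes so that most genes agree between libraries. CPM is not divided by gene length, so levels are compared only within a gene. Rapamycin replicate 2 stood apart from the other libraries. Its TMM factor was 0.660 against 0.873 to 1.13 in the other 11 libraries, and it had counts for 17475 genes against 18659 to 19254. Its part in the results below was not tested beyond fits that left it out, scaled it otherwise or weighted it by sample quality (weight 0.074). Markers of urethral cell types, and of cells that enter a wound, were not evaluated because the count table gives no symbols for them, and the labelled tissue could not be checked against its markers. In bulk tissue, fewer cells of a type and less RNA per cell cannot be told apart.

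**Figure D1:**
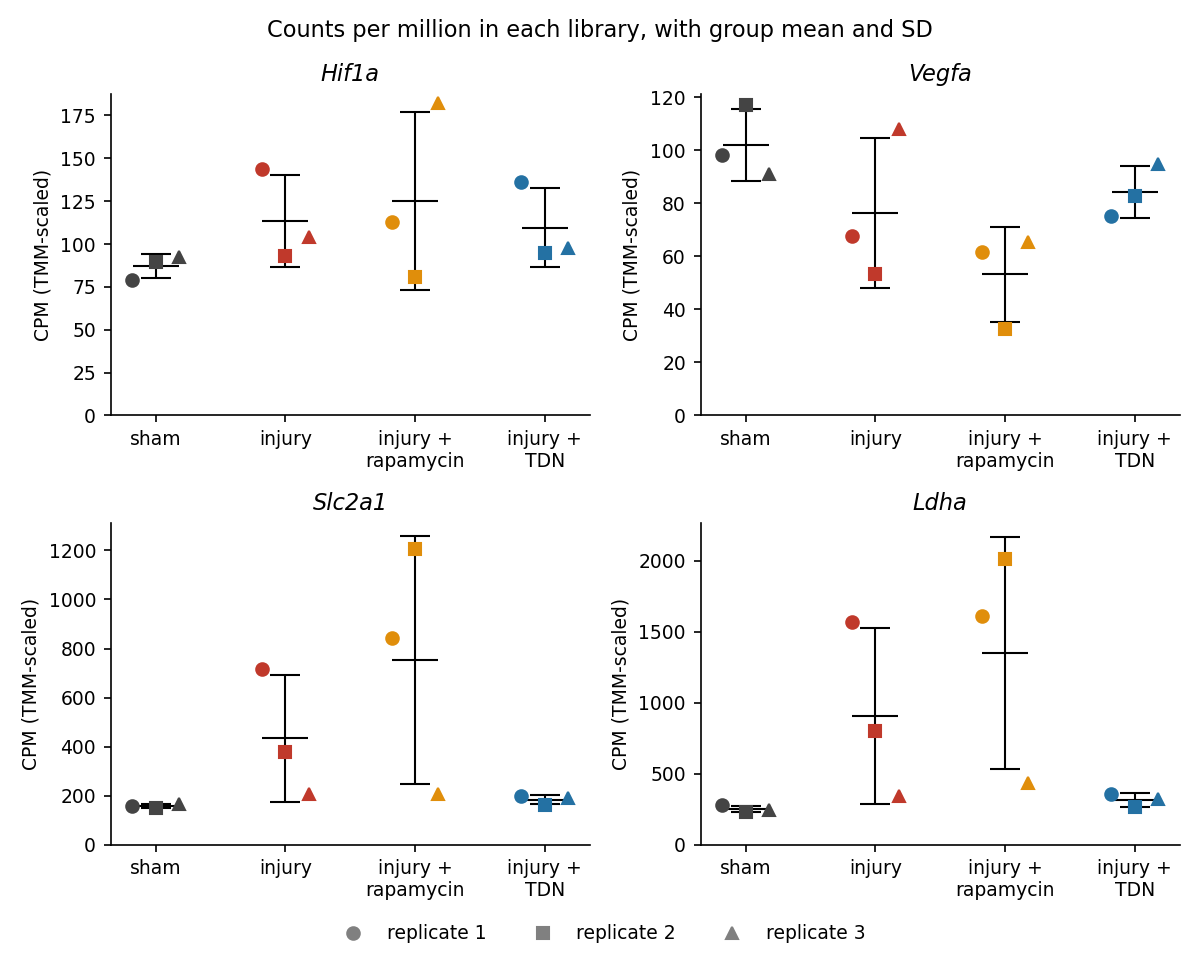
Level of Hif1a, Vegfa, Slc2a1 and Ldha in each of the 12 libraries (vertical axes: CPM after TMM scaling, from 0; horizontal axis: group; symbols: replicate numbers; bars: group mean ± SD, n = 3). For Slc2a1 and Ldha, replicates 1 and 2 of injury and rapamycin lie well above every sham and TDN library, while replicate 3 of each lies close to them.

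Slc2a1, the transporter that brings glucose into the cell, was even across sham tissue, at 157, 151 and 167 CPM in replicates 1 to 3. In injured tissue it was 717, 378 and 207 CPM, and in rapamycin-treated tissue 843, 1205 and 207 CPM. In TDN-treated tissue it was 198, 162 and 191 CPM. All 3 injury and all 3 rapamycin libraries were above all 3 sham libraries, but within injury the highest library held 3.47 times the lowest, and within rapamycin 5.82 times. The TDN libraries overlapped with sham and lay below every injury library.

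Ldha, which encodes the enzyme subunit that makes lactate, followed the same order. Sham tissue held 278, 231 and 244 CPM. Injured tissue held 1570, 798 and 346 CPM, rapamycin-treated tissue 1608, 2010 and 435 CPM, and TDN-treated tissue 360, 263 and 320 CPM. Every injury and rapamycin library was again above every sham library. TDN replicate 1 was above injury replicate 3, so that the TDN and injury groups overlapped in this gene, as did TDN and sham.

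The mean Slc2a1 level was 752 ± 505 CPM with rapamycin and 434 ± 260 with untreated injury, against 184 ± 19.3 with TDN and 159 ± 7.9 in sham (SD, n = 3 each). The mean Ldha level was 1351 ± 818, 904 ± 619, 314 ± 48.7 and 251 ± 23.8 CPM, with the groups in the same sequence. Rapamycin had the highest mean of both genes and sham the lowest. No neighbours in this order, rapamycin, injury, TDN and sham, passed the test between them.

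Vegfa, the ligand that drives the growth of blood vessels, was highest in sham, at 98.2, 117 and 90.9 CPM. It was 67.8, 53.4 and 108 CPM in injury and 61.6, 32.8 and 65.3 CPM in rapamycin. In TDN tissue it was 75.3, 82.9 and 94.8 CPM. All 3 rapamycin libraries were below all 3 sham libraries, with the lowest level in rapamycin replicate 2. Injury replicate 3 lay within the range of sham, so that injury and sham overlapped, and so did TDN and sham. Sham had the highest mean, 102 ± 14 CPM, followed by TDN at 84.3 ± 9.8, injury at 76.4 ± 28.2 and rapamycin at 53.2 ± 17.8 CPM (SD, n = 3 each). No neighbours in this order passed the test either.

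Hif1a, the gene of the oxygen-regulated subunit itself, had the smallest share of its spread between the groups, 23.6% of its squared deviation. Sham tissue held 79.3, 89.5 and 92.7 CPM, injured tissue 144, 92.8 and 104 CPM, rapamycin-treated tissue 113, 80.9 and 182 CPM, and TDN-treated tissue 136, 94.9 and 97.8 CPM. The injury and TDN libraries were all above the sham libraries, though injury replicate 2 exceeded the highest sham library by under 1 CPM, and rapamycin replicate 2 lay within the sham range. The highest Hif1a level was in rapamycin replicate 3, a library with low Slc2a1 and Ldha for its group. Its mean was lowest in sham, 87.2 ± 7.0 CPM, then 110 ± 23.0 for TDN, 114 ± 26.8 for injury and 125 ± 51.9 for rapamycin (SD, n = 3 each), and no neighbours in this order passed the test.

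Injury against sham asked what changed in the wounded urethra without a labelled drug. The test here and below, unless another tool is named, is edgeR's quasi-likelihood test with p adjusted by Benjamini-Hochberg over all tested genes and a threshold of 0.05. None of the 4 genes passed it, in a comparison where 0.651% of all tested genes passed. Ldha had a log2 fold change of 1.85 (SE 0.58, 95% interval 0.57 to 3.13, unadjusted p = 0.00886, edgeR adjusted p = 0.124). Slc2a1 had 1.45 (SE 0.56, interval 0.21 to 2.69, unadjusted p = 0.0260, edgeR adjusted p = 0.183). The intervals are for each gene alone, with no adjustment for the number of genes tested. Of all tested genes, 6.48% had a higher log2 fold change than Ldha and 9.11% a higher one than Slc2a1.

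Hif1a was 1.30-fold its sham level after injury (interval 0.826 to 2.06, edgeR adjusted p = 0.431) and Vegfa 1.34-fold below it (log2 fold change -0.42, interval -1.10 to 0.26, edgeR adjusted p = 0.407). The median log2 fold change of the 4 genes was 0.92, beside -0.01 over all tested genes. All libraries of both groups separated for 3 of the 4 genes, Hif1a, Slc2a1 and Ldha, all higher in injury, where this held for 42.3% of all tested genes. Without injury replicate 1 the fold of Ldha was 2.28 (edgeR adjusted p = 0.462) and that of Slc2a1 1.84 (edgeR adjusted p = 0.604). Without injury replicate 3 Ldha passed, at 4.72-fold (edgeR adjusted p = 0.0300), in a fit that called 11.9% of all tested genes.

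Rapamycin-treated injured tissue was next set against sham. Slc2a1 and Ldha rose, which is 2 of the 4 genes, where 12.3% of all tested genes passed. The log2 fold change was 2.25 for Slc2a1 (SE 0.58, interval 0.97 to 3.52, edgeR adjusted p = 0.0415) and 2.43 for Ldha (SE 0.59, interval 1.12 to 3.73, edgeR adjusted p = 0.0372). Both were higher in 3 of 3 rapamycin libraries than in any sham library. Vegfa came close to the threshold, with a log2 fold change of -0.94 (SE 0.31, interval -1.63 to -0.25, edgeR adjusted p = 0.0635). Hif1a was 1.44-fold its sham level (interval 0.911 to 2.27, edgeR adjusted p = 0.201).

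All libraries separated for Slc2a1, Ldha and Vegfa, which is 3 of 4 genes, beside 52.3% of all tested genes, and the median log2 fold change of the 4 genes was 1.38 beside -0.05. The calls of Slc2a1 and Ldha depended on the libraries fitted, and that of Slc2a1 also on the tool and scaling (limma voom adjusted p = 0.0522, and edgeR adjusted p = 0.0584 with library size only). Leaving out any 1 sham library ended both calls (edgeR adjusted p from 0.117 to 0.141), with folds of 4.69 to 4.86 for Slc2a1 and 5.24 to 5.67 for Ldha, in fits that called 0.0056% to 0.112% of all tested genes. Both were also lost without rapamycin replicate 1 (0.0677 and 0.0645) or 2 (0.0888 and 0.0754), without injury replicate 2 (0.0580 and 0.0531), without any 1 TDN library (0.0601 to 0.0678) and in a fit of only these 2 groups (0.108 and 0.0921). In those other fits 0.202% to 5.09% of all tested genes were called. Without rapamycin replicate 2 the folds were 3.45 for Slc2a1 and 4.23 for Ldha. Vegfa passed in DESeq2 (DESeq2 adjusted p = 0.0281), which called 32.2% of its tested genes, and in limma voom with sample quality weights (limma adjusted p = 0.00941), which called 48.2%. The weights of rapamycin replicates 1 to 3 were 1.44, 0.074 and 0.309. Vegfa also passed without injury replicate 3 (edgeR adjusted p = 0.0375) or rapamycin replicate 3 (edgeR adjusted p = 0.0310), where 22% and 40.6% of tested genes were called.

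**Figure D2:**
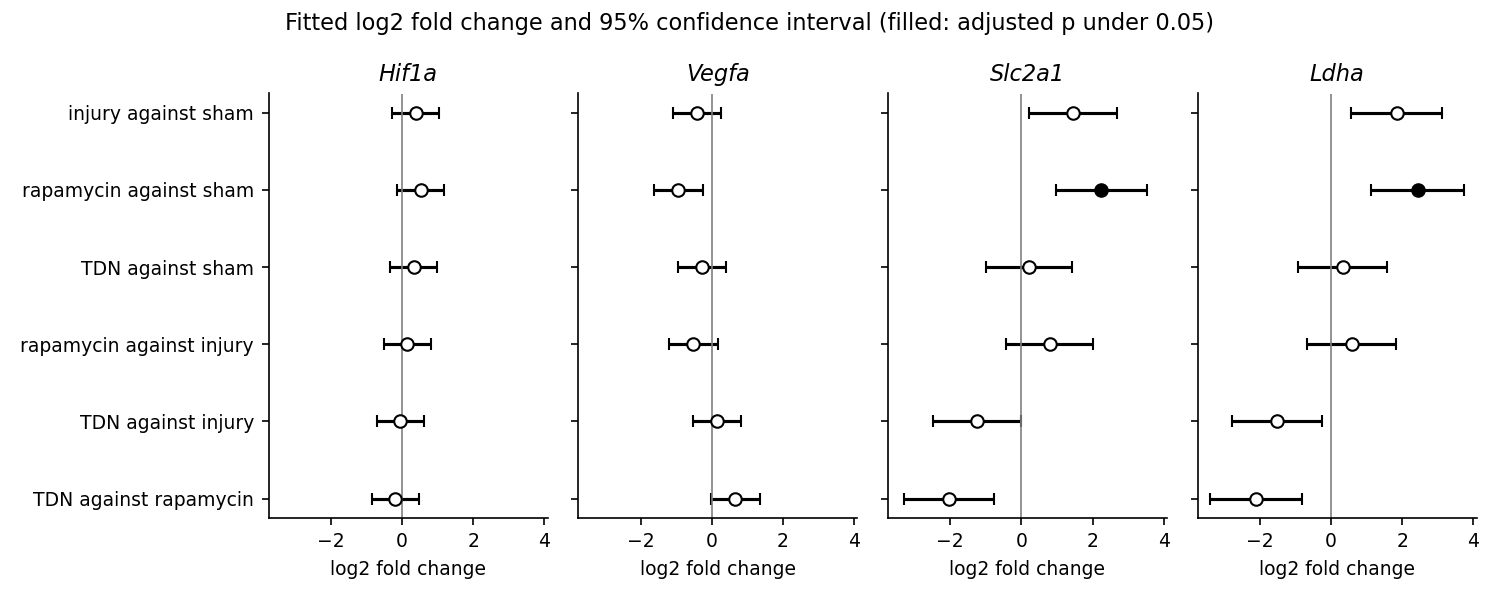
Fitted log2 fold change of Hif1a, Vegfa, Slc2a1 and Ldha (horizontal axes) in the 6 comparisons of 2 groups (rows), with 95% confidence intervals that are not adjusted for the number of genes. Filled points, Slc2a1 and Ldha in rapamycin against sham, have an adjusted p under 0.05, and open points do not.

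TDN against injury asked whether the nanostructure altered these genes in the wound. None of the 4 passed, in a comparison where 0% of all tested genes did (6.13% had an unadjusted p under 0.05). Slc2a1 was 2.36-fold and Ldha 2.88-fold lower in TDN than in untreated injured tissue, with log2 fold changes of -1.24 (SE 0.56, interval -2.47 to -0.003, unadjusted p = 0.0495) and -1.52 (SE 0.57, interval -2.79 to -0.26, unadjusted p = 0.0228), and an edgeR adjusted p of 0.649 for each. Vegfa had a log2 fold change of 0.14 (interval -0.54 to 0.82) and Hif1a of -0.05 (interval -0.71 to 0.60), and neither interval excludes a difference of up to its bounds.

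The TDN and injury libraries did not overlap for 1 of the 4 genes, Slc2a1, beside 19.5% of all tested genes. The median log2 fold change of the 4 genes was -0.65, beside -0.0037 over all tested genes. Without injury replicate 1, Slc2a1 was 1.59-fold and Ldha 1.82-fold lower in TDN (edgeR adjusted p = 0.990 for both). In limma voom with sample quality weights (2.10 for injury replicate 2, and 0.433 and 0.204 for replicates 1 and 3), Slc2a1, Ldha and Vegfa passed (limma adjusted p = 0.00939, 0.00514 and 0.0357), but so did 37.6% of all tested genes. DESeq2 called none of the 4.

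TDN-treated injured tissue was also set against sham. None of the 4 genes passed, and 0% of all tested genes did (5.31% had an unadjusted p under 0.05). The fold over sham was 1.16 for Slc2a1 (interval 0.499 to 2.70), 1.25 for Ldha (0.530 to 2.96) and 1.26 for Hif1a (0.797 to 1.98), and Vegfa was 1.21-fold lower (log2 fold change -0.28, interval -0.96 to 0.41), with an edgeR adjusted p of 1 for each. The upper bounds for Slc2a1 and Ldha reach 2.70-fold and 2.96-fold, so the fit does not show that TDN tissue matched sham. Only Hif1a, 1 of the 4 genes, had libraries that did not overlap, beside 32.6% of all tested genes. The median log2 fold change was 0.27 beside -0.02.

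Rapamycin against injury asked whether rapamycin altered these genes in the wound. None of the 4 passed, where 0% of all tested genes did (4.38% had an unadjusted p under 0.05). Slc2a1 was 1.73-fold (interval 0.742 to 4.05) and Ldha 1.49-fold (interval 0.631 to 3.54) its level in untreated injury, and Hif1a 1.10-fold (interval 0.700 to 1.74), while Vegfa was 1.43-fold lower (log2 fold change -0.52, interval -1.20 to 0.16). The edgeR adjusted p was 0.902 for Slc2a1, Ldha and Vegfa and 0.923 for Hif1a. For 0 of the 4 genes did the libraries separate, beside 3.94% of all tested genes. Without rapamycin replicate 2 the folds of Slc2a1 and Ldha were 1.21 and 1.12, and without injury replicate 1 they were 2.57 and 2.36.

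TDN against rapamycin set the treated groups against each other. None of the 4 genes passed, where 0% of all tested genes did and the smallest adjusted p of any gene was 0.161 (24.3% had an unadjusted p under 0.05). Slc2a1 and Ldha had that value, with log2 fold changes of -2.03 (SE 0.57, interval -3.30 to -0.77) and -2.10 (SE 0.58, interval -3.39 to -0.81), or 4.09-fold and 4.30-fold lower in TDN. The adjustment gave the same value to many genes, so it does not rank these 2 first. Of all tested genes, 5.06% had a lower log2 fold change than Slc2a1 and 4.64% a lower one than Ldha. Vegfa was 1.58-fold higher in TDN (interval 0.985 to 2.55, edgeR adjusted p = 0.214) and Hif1a 1.14-fold lower (log2 interval -0.85 to 0.46, edgeR adjusted p = 0.657). All libraries separated for 3 of the 4 genes, Vegfa, Slc2a1 and Ldha, beside 38.5% of all tested genes. Without rapamycin replicate 3, Slc2a1 and Ldha passed (edgeR adjusted p = 0.0244 and 0.0247), with 26.8% of all tested genes called. Without rapamycin replicate 2 the differences were 2.91-fold and 3.31-fold (edgeR adjusted p = 0.394 and 0.374).

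All 9 injured libraries were then set against the 3 sham libraries, giving each injured group the same weight. None of the 4 genes passed, where 1.52% of all tested genes did. The fold was 2.90 for Ldha (interval 1.34 to 6.28, edgeR adjusted p = 0.110), 2.47 for Slc2a1 (1.17 to 5.22, edgeR adjusted p = 0.141) and 1.33 for Hif1a (0.909 to 1.95, edgeR adjusted p = 0.279), and Vegfa was 1.46-fold lower (edgeR adjusted p = 0.186). For 0 of the 4 genes did the 9 libraries all separate from sham, beside 18.9% of all tested genes, since at least 1 TDN library overlapped with sham in Slc2a1, Ldha and Vegfa and rapamycin replicate 2 did in Hif1a. Without rapamycin replicate 3, Slc2a1 and Ldha passed (edgeR adjusted p = 0.0343 and 0.0348), and without injury replicate 3 Ldha did (0.0369), where 13.9% of all tested genes were called in each fit. Exact two-sided permutation over the 220 choices of 3 sham libraries gave p = 0.0591 for Ldha, 0.0909 for Vegfa, 0.0955 for Slc2a1 and 0.109 for Hif1a, not adjusted for the number of genes, where 0.0045 is the smallest possible.

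A test of any difference among the 4 groups gave an edgeR adjusted p of 0.0868 for Ldha, 0.0974 for Slc2a1, 0.229 for Vegfa and 0.568 for Hif1a, so that none of the 4 passed, where 0.0171% of all tested genes did. The groups accounted for 63.9% of the squared deviation in log2 CPM of Ldha, 58.0% of that of Slc2a1, 55.7% of that of Vegfa and 23.6% of that of Hif1a. Exact permutation over all 15400 partitions of the libraries gave unadjusted p = 0.0399, 0.0523, 0.0692 and 0.519. Without adjustment for the number of genes, the value of Ldha is not counted as a pass. Without rapamycin replicate 3 these shares were 82.6% for Ldha and 85.4% for Slc2a1. In the edgeR test of any difference both then passed (edgeR adjusted p = 0.0192 and 0.0174), as they did without injury replicate 3 (0.0308 and 0.0433). Those fits called 18.9% and 9.99% of all tested genes.

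The spread between libraries of 1 group also differed between the genes. In sham the SD of log2 CPM was 0.07 for Slc2a1, 0.12 for Hif1a, 0.13 for Ldha and 0.19 for Vegfa, beside a median of 0.17 over all tested genes. In TDN it was 0.16, 0.29, 0.23 and 0.17 in the same order, beside a median of 0.19. In injury Slc2a1 and Ldha reached 0.90 and 1.09, where the median of all tested genes was 0.51, and in rapamycin 1.34 and 1.19, where it was 0.77. Hif1a and Vegfa stayed near or below these medians, at 0.33 and 0.52 in injury and 0.59 and 0.55 in rapamycin. Of all tested genes, 74.8% had a lower SD than Slc2a1 and 81.8% a lower one than Ldha in injury. In rapamycin these shares were 75.6% and 70.6%.

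Slc2a1 and Ldha varied together across the 12 libraries (Pearson r = 0.989, Spearman rho = 0.965, permutation p = 1e-05 for both, the smallest that 100000 resamples give, and 6e-05 adjusted over the 6 pairs of genes). The relation held without rapamycin replicates 1 and 2, the libraries farthest from the median (r = 0.989). It also held over the 9 libraries other than the 3 highest in Slc2a1, injury replicate 1 and rapamycin replicates 1 and 2 (r = 0.974, exact permutation p = 0.000176). This set was split off at the widest gap in Slc2a1 itself and still mixes all groups, so it is no independent check. Libraries of 1 group share its treatment, so these points are not all independent of each other. The permutations here and below shuffled libraries across groups. Their p-values therefore do not separate differences between groups from variation within them, and correlations within groups are not given here. Of 11871 tested genes with a mean of at least 5 CPM, 12.9% had r of 0.9 or more with Slc2a1 and 11.8% with Ldha.

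Vegfa ran against both. Its Pearson r with Ldha was -0.823 (rho = -0.839, permutation p = 0.00059 and 0.00124, adjusted p = 0.00177 and 0.0027), and with Slc2a1 -0.821 (rho = -0.832, permutation p = 0.00102 and 0.00135, adjusted p = 0.00204 and 0.0027). Lower values were common among the 11871 tested genes with a mean of at least 5 CPM. There, 1395 had r of -0.9 or less with Ldha and 1452 with Slc2a1. Without rapamycin replicate 2 and sham replicate 2, the libraries with the lowest and highest Vegfa, r of Vegfa was -0.722 with Ldha and -0.666 with Slc2a1. Over the 9 libraries other than the 3 highest in Slc2a1, r was -0.842 with Ldha and -0.782 with Slc2a1 (exact permutation p = 0.00459 and 0.0120), but without injury replicate 2 and rapamycin replicate 3 as well it was -0.364 and -0.269, so within those libraries the relation rests on these 2. Hif1a showed no such relation to Vegfa (r = -0.065), Slc2a1 (r = 0.053) or Ldha (r = 0.151), with an adjusted permutation p of 0.871 for each (rho -0.238, 0.399 and 0.371, adjusted p = 0.457, 0.283 and 0.283). The signs of these 3 weak correlations changed with the scaling.

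**Figure D3:**
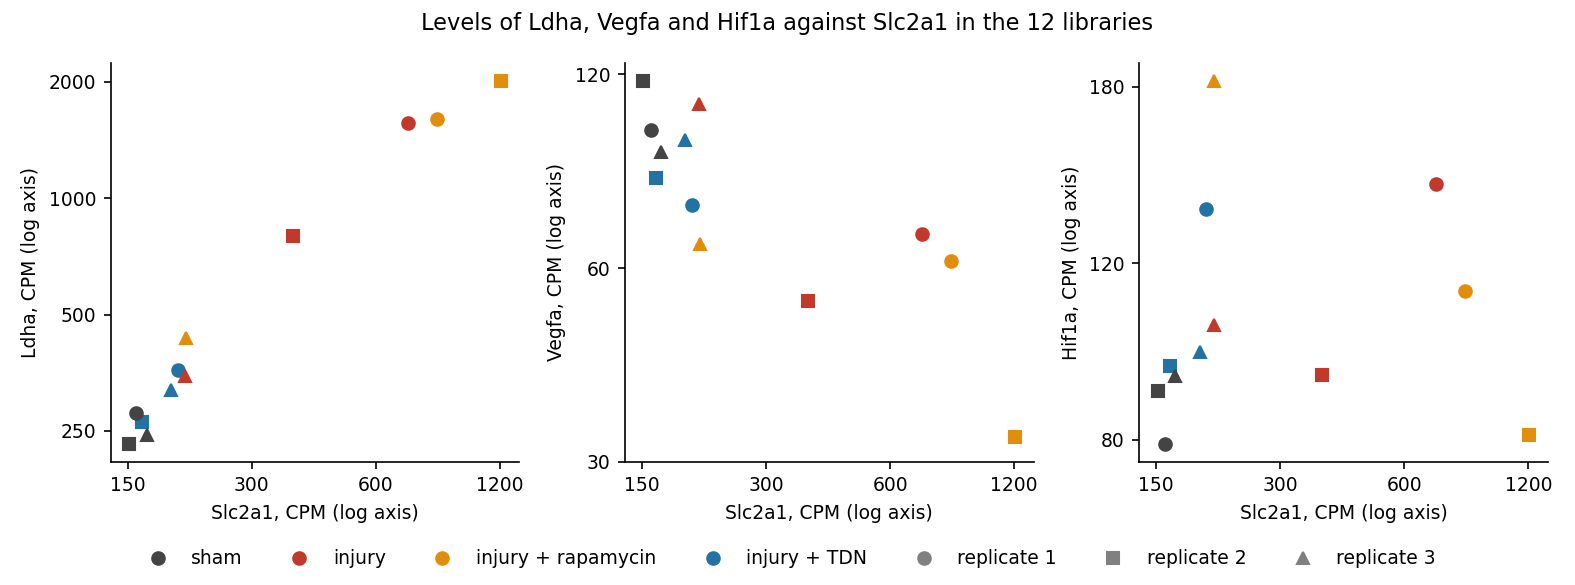
Levels of Ldha, Vegfa and Hif1a (vertical axes, CPM, log scale) against the level of Slc2a1 (horizontal axes, CPM, log scale) in the 12 libraries, coloured by group and with symbols for replicate numbers. Ldha climbs with Slc2a1 (r = 0.989), Vegfa declines (r = -0.821) and Hif1a shows no trend (r = 0.053).

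The ratio of 2 genes' counts within a library needs no scaling factor, so the low TMM factor of rapamycin replicate 2 does not enter it. This measure was added after the levels had been seen and is given without a test. Relative to the sham mean, the ratio of Vegfa to Slc2a1 was 0.148, 0.220 and 0.815 in injury replicates 1 to 3, and 0.114, 0.0424 and 0.492 in rapamycin replicates 1 to 3. It was 0.592, 0.798 and 0.774 in the TDN libraries and 0.973, 1.21 and 0.850 in the sham libraries. All 9 injured libraries, treated or not, therefore lay below all 3 sham libraries, by a small margin in injury replicate 3 and TDN replicates 2 and 3. How often the ratios of other gene pairs split in this way was not counted. Levels of single genes separated all 9 from sham for 18.9% of all tested genes.

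The ratio of Vegfa to Ldha showed the same split. It ran from 0.0402 to 0.777 of the sham mean in the 9 injured libraries and from 0.872 to 1.25 in the 3 sham libraries. The ratio of Slc2a1 to Ldha moved far less, from 0.721 to 0.973 of the sham mean in the injured libraries and from 0.896 to 1.08 in sham. It was below every sham library in 5 of the 9 injured libraries. The ratio of Hif1a to Vegfa was above every sham library in 8 of the 9 injured libraries, the exception being injury replicate 3. It reached 2.88 and 3.26 times the sham mean in rapamycin replicates 2 and 3. The remaining pairs went both ways. The ratio of Hif1a to Slc2a1 was below every sham library in 4 injured libraries and above every sham library in 2, and that of Hif1a to Ldha was below in 4 and above in 1.

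**Figure D4:**
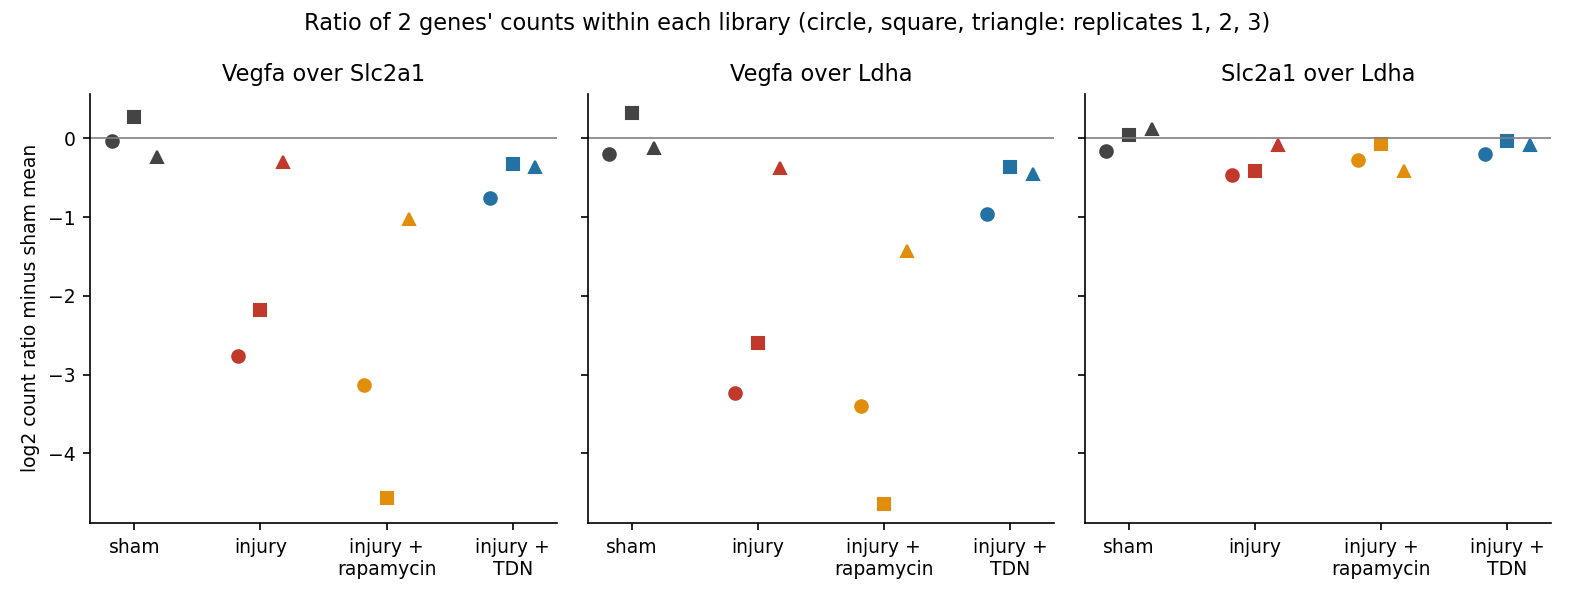
Log2 ratio of 2 genes' counts within each library, minus the sham mean (vertical axis, shared), by group (horizontal axes), for Vegfa over Slc2a1, Vegfa over Ldha and Slc2a1 over Ldha. In the first and second panels all 9 injured libraries lie below the 3 sham libraries. The third panel varies less, and there 5 of the 9 injured libraries lie below the 3 sham libraries.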

How the data were processed

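Libraries were made from poly(A)-enriched urethral RNA, per the labels' protocols, and read as paired ends, per the study's design text. The authors deposited whole-number counts per Ensembl gene ID, without normalization. The genome build named is Rnor 6.0, per the submitters' processing notes. How reads were aligned, counted and assigned to strands was not given in the sources used here, and reads of overlapping, antisense or near-identical genes (Ldha has close relatives in its family) could not be told apart. Of 15 library columns 12 matched labelled samples, and 3 columns were not used.

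Groups came from the treatment labels. Counts were fitted with edgeR 4.0.16 (R 4.3.3; quasi-likelihood test, TMM scaling, default expression filter, 1 coefficient per group, 8 residual degrees of freedom), which kept 17521 of 32623 genes. P-values were adjusted by Benjamini-Hochberg over all tested genes, and genes were called under 0.05. Standard errors are the absolute log2 fold change over the square root of F. Log2 CPM used a prior count of 2. The alternatives were DESeq2 1.42.0, voom in limma 3.58.1 (also weighted by sample quality), other scalings and prior counts, no filter, other sets of groups, the replicate number as a block, and fits without 1 library. Ratios of counts within a library were added after the data were seen.

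The 4 genes were named in every comparison, as the naming rule required, and they and the lists were chosen with earlier results of these data known. Lists of other hypoxia and glycolysis genes and of cell type markers, set by symbol, were not evaluated because the IDs lack symbols. The titles number libraries 1 to 3 in each group. Deviations of same-numbered libraries from their group means correlated at 0.107, 0.138 and 0.261 between sham and injury, all over 0.1. The block by replicate number rests on these correlations alone, since the labels state no pairing, and they do not establish one. In the other pairs of groups not all 3 were over 0.1. In replicates 1 to 3 they were -0.107, -0.0571 and -0.243 between sham and TDN, and 0.196, -0.0847 and -0.0516 between sham and rapamycin. They were 0.0717, -0.109 and -0.188 between injury and TDN, and 0.0429, 0.00202 and -0.000854 between rapamycin and TDN. Correlations between differently numbered libraries are not given here. The highest value of any pair was 0.550, between injury and rapamycin in replicate 3, beside 0.0921 and 0.156 in replicates 1 and 2. Its cause was not tested. Sequences came from RefSeq on GRCr8, where all 4 symbols matched. Of the windows listed for Vegfa, the one at the 5′ end of the gene was used.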

Additional observations from a re-analysis of the deposited data

How the results depend on the processing

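The count of the 4 genes called depended on tool and libraries, and so did the share of all tested genes called, given in parentheses. For injury against sham it was 0 (0.651%), but 1 in DESeq2 (10.3%), 3 in voom with sample quality weights (53.2%) and 2 without the rapamycin group (15.1%). With 1 library left out it was 0 to 1 (0% to 11.9%). For rapamycin against sham it was 2 (12.3%), but 3 in DESeq2 (32.2%), 3 with sample quality weights (48.2%) and 1 in voom (10.2%). It was 1 with library size only (4.17%), 0 in a fit of only the 2 groups (0.202%), and 0 to 3 with 1 library left out (0.0056% to 40.6%). For TDN against injury it was 0 (0%), but 3 with sample quality weights (37.6%). For TDN against rapamycin it was 0 (0%), but 2 in DESeq2 (10%), 2 with sample quality weights (34.2%), and 0 to 2 with 1 library left out (0% to 26.8%). For all injured libraries against sham and for any difference it was 0 (1.52% and 0.0171%), but 2 in DESeq2 (13.6% and 20.3%) and 3 with sample quality weights (58.2% and 60.2%). With 1 library left out it was 0 to 2 (0% to 13.9% and 0% to 18.9%). After adjustment, the exact permutation over 4 groups passed 0 genes, and 0 to 2 with 1 library left out. The signs of fitted differences of Slc2a1 and Ldha held under all alternatives run. Signs near 0 did not. Hif1a in TDN against injury was 0.054 with sample quality weights, 0.0078 with upper quartile scaling, 0.061 with library size only and -0.24 to 0.15 with 1 library left out. Hif1a in TDN against rapamycin was 0.021 with library size only and -0.45 to 0.18 with 1 library left out, and in rapamycin against injury -0.23 to 0.37. Vegfa in rapamycin against injury was 0.058 with sample quality weights, and in TDN against injury -0.075 to 0.48 with 1 library left out. With library size only, r of Hif1a was 0.46 with Vegfa, -0.36 with Slc2a1 and -0.24 with Ldha, and with 1 library left out -0.49 to 0.027, -0.12 to 0.35 and -0.024 to 0.42. The cause of these changes was not tested. Scaling by library size only moved the median log2 fold change of all genes to -0.37 in rapamycin against sham and to 0.34 in TDN against rapamycin. With the replicate number as a block (replicate block), 0 calls changed, and Slc2a1 in rapamycin against sham had a log2 fold change of 2.04 (edgeR adjusted p = 0.0459).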

Other observations

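Genes whose level followed each of the 4 were sought among 11871 tested genes with a mean of at least 5 CPM, by Pearson's r of log2 CPM over the 12 libraries. Slc2a1 had 1531 genes at r of 0.9 or more and 1452 at -0.9 or less, and Ldha had 1404 and 1395. Vegfa had 456 and 513, and Hif1a had 0 and 0. The libraries share group, depth and composition, so these counts are descriptions with no test, and a large share of genes, 12.9% for Slc2a1, followed the same order of libraries. The nearest gene to both Slc2a1 (r = 0.995) and Ldha (r = 0.993) was ENSRNOG00000047276, and over the 9 libraries other than the 3 highest in Slc2a1 its r was 0.978 and 0.976. The files do not pair this ID with a symbol. The nearest gene to Vegfa had r = 0.979 (0.951 over those 9 libraries), and the nearest to Hif1a had r = 0.851.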
